A study of Saccharomyces cerevisiae with 24 samples.

Results

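The polyA-selected RNA of budding yeast (*Saccharomyces cerevisiae*, W303-1A background, mating type a) held in G1 was compared between the strains that the deposited columns name as code 14 and code 18. The comparison used the 6 G1 polyA libraries of the 24 libraries of the series, 3 of code 14 and 3 of code 18, chosen by their column names. Within it, 486 features were higher and 439 were lower in code 14. The sample labels describe 2 strains but do not explain the codes, so no code was given a strain.

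Of these strains, the ycg1Degron1 strain carries YCG1 behind the methionine-repressible MET3 promoter with the K. lactis URA3 marker. Its Ycg1 protein bears PK epitopes and miniAID degron tags (KANMX6), and the strain also holds ADE2::pADH1-OsTIR1-9Myc, a plant ubiquitin ligase subunit that marks miniAID proteins for destruction in auxin. The control strain carries YCG1 with the PK epitopes and the K. lactis TRP1 marker, and the labels give it neither the MET3 promoter nor OsTIR1. The G1 cells of both strains were treated alike. Cultures grown at 25 °C in synthetic medium without methionine received α-factor for 1.5 h and were then kept for 2 h in rich medium with methionine and 88 μg/ml auxin, with the pheromone arrest maintained. The M libraries, used here beside the G1 values, came from those cultures after release from pheromone and 2 h in nocodazole, a microtubule poison that holds cells in mitosis. There were 3 biological replicates of each code, and the labels do not say whether a strain was a single clone. None of the 24 libraries came from untreated cells, so a difference between the strains that was there before auxin and methionine cannot be told apart from one that followed.

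Condensin is the ring-shaped complex that compacts chromosomes for mitosis and organises the ribosomal DNA array. Its Smc2 and Smc4 arms are closed by the kleisin Brn1, which holds the HEAT-repeat subunits Ycg1 and Ycs4. In an a cell, α-factor binds the receptor Ste2 and, through a MAP kinase cascade and the transcription factor Ste12, switches on mating genes, while the inhibitor Far1 blocks the G1 cyclins. The G1/S genes, which the factors SBF and MBF switch on at Start, stay low for as long as the arrest holds.

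The G1 libraries held 11001986, 18974066 and 10282599 expected counts for code 14, against 22171825, 11441541 and 13277087 for code 18, of which ribosomal RNA took between 2.24% and 7.78%. Levels are given as CPM, that is, counts per 1000000 counts outside ribosomal RNA and spike-in sequences, after scaling between libraries. They are relative to the other transcripts of a library, and RNA per cell was not measured. The labelled mating type and arrest were checked against their markers. The a-cell pheromone precursor gene MFA1 had 90.6, 144 and 137 CPM in code 14, against 108, 134 and 152 CPM in code 18, whereas the α-cell gene MF(ALPHA)1 was at or below 0.334 CPM in all 6. Not every α-cell marker was so low. SAG1 was at levels near those of MFA1, and SAG1, MF(ALPHA)2 and STE3 were called higher in code 14, as given below. The mating genes FUS1 and FAR1 were high in all 6 libraries, at no less than 237 CPM for FUS1 and 290 CPM for FAR1. The mitotic cyclin gene CLB2 had 23.1, 19.7 and 15.7 CPM in code 14 and 13.1, 11.1 and 15.8 CPM in code 18 in G1, against 123 to 147 CPM over the 6 M libraries.

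Replicate 3 of code 18 stood apart from the other 5 libraries, with the highest G1/S transcripts and the lowest mating transcripts. Over the 24 G1/S genes listed, summed levels were 1237, 1120 and 1238 CPM in code 14, against 2044, 1517 and 3575 CPM in code 18. Over 35 mating genes they were 29440, 25770 and 26400 CPM in code 14, against 19530, 21890 and 13200 CPM in code 18. Replicate 3 of code 14 was the lowest of its 3 for several stress and daughter-cell genes.

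The sequences below are promoter sites of genes from the groups that differed, each 30 bases with a motif of that group in capitals, in the direction of the gene, from RefSeq on the R64 assembly. The motif may lie on either strand. Only genes with a match are shown, and several other named genes of these groups had none in the window searched, as given below. For Gcn4, the activator of amino acid synthesis genes (TGACTC), the sites lie before genes of histidine, lysine, tryptophan and purine synthesis.
HIS4, chrIII:68515-68544, minus strand: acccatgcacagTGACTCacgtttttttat
LYS1, chrIX:420853-420882, minus strand: ttcagcgacaaaGAGTCAtaaagtcatcct
TRP3, chrXI:38259-38288, minus strand: tcaatggctcgtTGACTCattctaatctat
ADE17, chrXIII:509440-509469, minus strand: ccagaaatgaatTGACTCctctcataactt

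For MBF (ACGCGT), the sites lie before genes for DNA ligase, a DNA polymerase α subunit and the cohesin regulator Pds5, all lower in code 14.
CDC9, chrIV:167362-167391, minus strand: cttaacgcgaaaACGCGTgaaagtgaaatt
POL12, chrII:153792-153821, minus strand: ttttttaccgtgACGCGTctcaccagagtt
PDS5, chrXIII:420180-420209, minus strand: tgtcgcgacgcgACGCGTaaagttgtataa

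The pheromone response element bound by Ste12 (TGAAACA) is shown before 3 mating genes that were higher in code 14, and the Aft1 site of iron genes (GCACCC) before FIT2, which was lower.
FUS2, chrXIII:736715-736744, plus strand: atgttacctacTGAAACAgcgcatgttgga
CIK1, chrXIII:659588-659617, plus strand: tgaagcaacttTGAAACAcaactacgacat
AGA2, chrVII:437014-437043, minus strand: aattaagggacTGTTTCAtaccttcagatc
FIT2, chrXV:1059388-1059417, plus strand: acgaatctaactGGGTGCagtataattagc

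The stress response element of Msn2 and Msn4 (CCCCT) is shown before HSP12 and DDR2, both higher in code 14.
HSP12, chrVI:107054-107083, plus strand: gttccggtcgtcCCCCTcttgatctgaaag
DDR2, chrXV:231913-231942, minus strand: tgtcttttctcaCCCCTtatgggacatcaa

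Over the whole table, 5832 features were tested. In code 14, 8.33% were higher and 7.53% lower at an adjusted p below 0.05, and these shares are the background for every gene list. The features called higher differed more. Their median fold was 1.64 (quartiles 1.36 and 2.22), against 1.35 (1.24 and 1.58) for the features called lower, and 159 and 51 features differed at least 2-fold. At 1.5-fold or more, 289 were higher (4.96%) and 134 lower (2.3%). The 3 values of each code did not overlap for 480 of the 486 higher and 427 of the 439 lower features. Over all 5832 features, code 14 lay wholly above code 18 for 926 and wholly below for 931. Lack of overlap was thus more common than a call and is no separate support for one. It was also part of the rule for genes named by size. The median difference of all features was -0.01 on the log2 scale. The number of features called lower was sensitive to single libraries. It was 245 without replicate 3 of code 18, and between 238 and 292 without replicate 1, 2 or 3 of code 14 or replicate 1 of code 18.

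**Figure D1:**
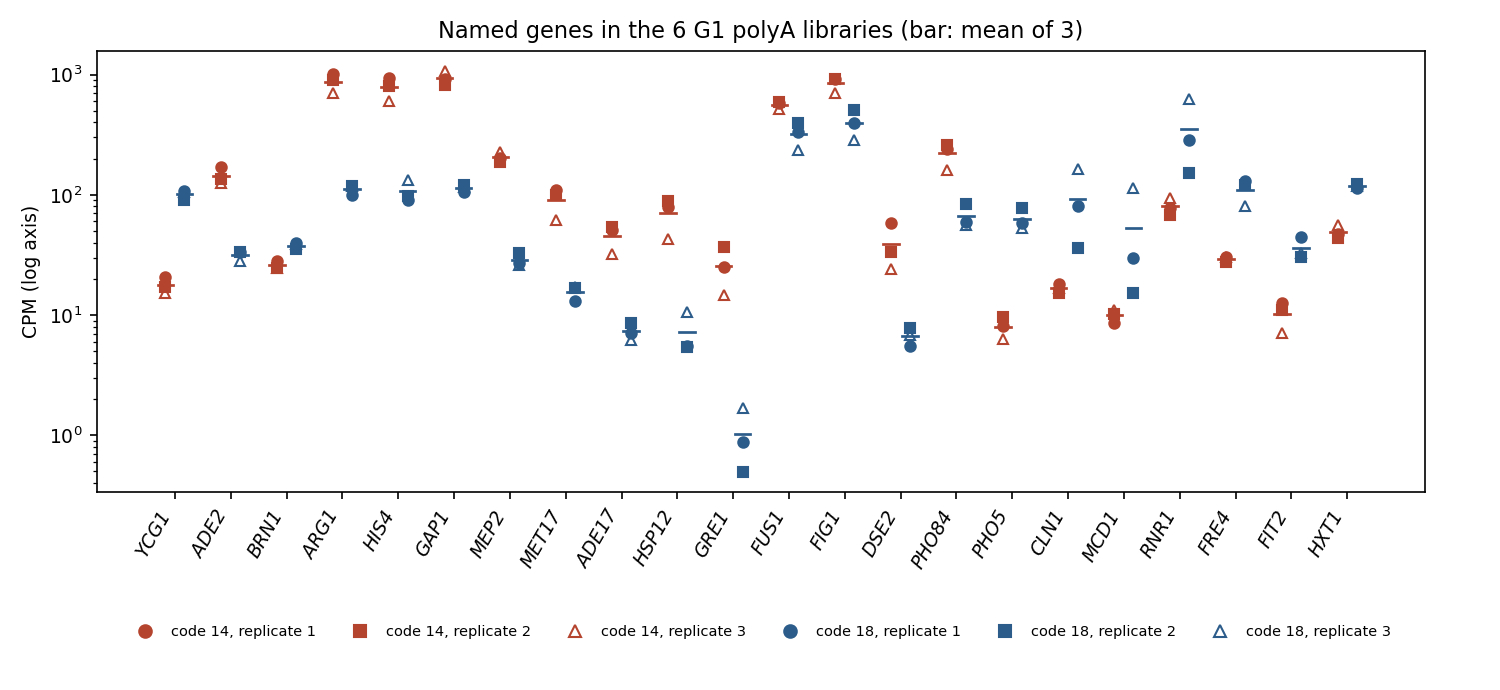
Level (CPM, log axis) of 22 genes in the 6 G1 polyA libraries; each point is a library, code 14 in red left of code 18 in blue, with a marker shape for each replicate and a bar at the mean of 3. The codes do not overlap for any gene shown; code 14 is lower for YCG1 (20.7, 17 and 15.2 CPM, against 108, 91.3 and 105 CPM) and higher for ADE2 (171, 134 and 126 CPM, against 33.7, 33.3 and 28.1 CPM).

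YCG1, which the labels place behind the MET3 promoter in the degron strain, was lower in code 14. YCG1 (YDR325W, chrIV:1117126-1120233) had 20.7, 17 and 15.2 CPM in code 14, against 108, 91.3 and 105 CPM in code 18. All 3 code 14 values lay below all 3 code 18 values, with a difference of -2.53 ± 0.12 on the log2 scale (SE, n = 3 each; adjusted p = 1.4e-07 by edgeR). In M the difference was -2.30. In the total RNA libraries of the G1 samples, made without polyA selection, YCG1 had 69.9, 34.8 and 39.5 CPM in code 14 and 84.9, 56.9 and 73.2 CPM in code 18, a difference of -0.58 that was not called (adjusted p = 0.15). The ranges overlapped there, and these libraries held between 642144 and 929935 counts outside ribosomal RNA. The difference itself differed between polyA and total libraries for YCG1 (adjusted p = 0.0012). Of 5761 features, 2 (0.0347%) did so, while 385 had an unadjusted p below 0.05. The other was YGR038C-A, a retrotransposon gene with near-identical copies, named after its value was seen.

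The other condensin genes differed less. BRN1, the kleisin, had 28.1, 24.8 and 24.8 CPM in code 14, against 39.6, 35.1 and 38.9 CPM in code 18 (log2 difference -0.55 ± 0.12 SE, adjusted p = 0.0084), again without overlap. In M BRN1 differed by 0.03, and in total RNA by -0.44 with overlapping ranges, and neither difference was called. The change of its difference between G1 and M was not called either (adjusted p = 0.071 by edgeR). SMC2, SMC4 and YCS4 had differences of -0.28, -0.26 and -0.12 and were not called (adjusted p = 0.051, 0.14 and 0.44). None of the 3 protein-coding genes on each side of YCG1 was called, and neither were the study's qPCR reference genes ACT1 and UBC6.

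Of the loci used to build the strains, ADE2 stood out. ADE2, which encodes an enzyme of purine synthesis, had 171, 134 and 126 CPM in code 14, against 33.7, 33.3 and 28.1 CPM in code 18. The values did not overlap, with a log2 difference of 2.18 ± 0.12 in G1 (SE; adjusted p = 3.7e-07), 2.19 in M and 2.17 in total RNA. URA3 (-0.16), TRP1 (0.10) and ADH1 (0.01) were not called. MET3, whose promoter drives YCG1 in the degron strain, had 27.3, 23.7 and 20.3 CPM in code 14, against 18.4, 16.6 and 19.4 CPM in code 18 (0.39 ± 0.11 SE, adjusted p = 0.034). The call for MET3 was lost without replicate 1 or 2 of code 14 or without any 1 library of code 18 (adjusted p between 0.0514 and 0.132) and in the G1 libraries fitted alone (0.092). By the labelled genotypes, the degron strain alone has YCG1 behind another promoter and an insert at ADE2. To give code 14 to that strain from the levels of these genes would be an inference, and it is not made here.

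Amino acid synthesis genes made up the broadest group that was higher in code 14. Of 50 genes of amino acid synthesis other than methionine and the aromatic amino acids, 39 rose, 1 fell and 10 were not called, against 8.33% and 7.53% of all features, and the median difference was 0.55. ARG1, argininosuccinate synthase, had 1006, 903 and 706 CPM in code 14, against 99.3, 118 and 118 CPM in code 18. That was a 7.8-fold difference (log2 2.96 ± 0.15 SE, adjusted p = 1.8e-07), with no code 14 library near the code 18 range.

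HIS4, a multifunctional histidine synthesis enzyme, had 938, 806 and 600 CPM in code 14, against 91.2, 98.6 and 133 CPM in code 18 (log2 2.86 ± 0.21 SE, adjusted p = 3.2e-06). LYS1 and LYS9, which make lysine, rose by 1.79 ± 0.11 and 1.27 ± 0.07 on the log2 scale (SE). LYS9 was the most even of these across libraries, with 266, 283 and 278 CPM in code 14, against 112, 118 and 114 CPM in code 18. BAT2, a branched-chain aminotransferase that also breaks these amino acids down, was the 1 member that fell. BAT2 had 244, 245 and 290 CPM in code 14 and 453, 496 and 479 CPM in code 18 (-0.87 ± 0.09 SE, adjusted p = 7e-05).

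The gene for Gcn4 itself, looked at after the values of its targets, differed little. GCN4 had 1333, 1325 and 1173 CPM in code 14, against 992, 1117 and 1020 CPM in code 18, without overlap (0.29 ± 0.08 SE, adjusted p = 0.021). The call for GCN4 was lost without replicate 1 or 2 of code 14, or without replicate 1 or 3 of code 18 (adjusted p between 0.0754 and 0.0849). Gcn4 is known to be controlled mainly in translation, which RNA levels do not measure.

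Genes for tryptophan, tyrosine and phenylalanine synthesis showed the same direction. Of 15, 11 rose and 2 fell, with a median of 0.44. ARO3 (0.88 ± 0.10 SE) opens the pathway, TRP3 (0.67 ± 0.07) acts in its tryptophan branch and ARO8 (0.67 ± 0.08) is an aminotransferase. ARO8 had 924, 917 and 849 CPM in code 14, against 516, 591 and 588 CPM in code 18. The 2 members that fell, ARO9 and ARO10, break aromatic amino acids down. ARO9 had 53, 41.6 and 42.1 CPM in code 14 and 81.9, 104 and 73.6 CPM in code 18 (-0.93 ± 0.14 SE). ARO10 had 106, 69.1 and 72.9 CPM in code 14 and 186, 215 and 166 CPM in code 18 (-1.20 ± 0.15 SE).

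Methionine and sulphur genes had the highest median of the lists. Of 37 genes, 23 rose, none fell and 14 were not called, with a median of 0.75. MET17, which fixes sulphide into homocysteine, had 111, 99 and 61.6 CPM in code 14, against 13, 16.7 and 17.1 CPM in code 18 (log2 2.55 ± 0.29 SE, adjusted p = 0.00015). MET10, a sulphite reductase subunit, and SSU1, a sulphite exporter, rose by 1.17 ± 0.12 and 1.34 ± 0.14 (SE). MET6, methionine synthase, named after its value was seen, had 224, 166 and 110 CPM in code 14 and 31.6, 27.6 and 33.7 CPM in code 18. The lowest code 14 value of MET6 and of MET17 was that of replicate 3, and it remained above the whole code 18 range. Of the 37 genes, 18 were called higher without replicate 3 of code 18.

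Purine synthesis genes were part of the group that rose. Of 18 genes other than ADE2, 10 rose and 2 fell, with a median of 0.43, and none fell without replicate 1 of code 18 or replicate 2 of code 14. ADE17, the bifunctional enzyme of the last steps to inosine monophosphate, had 51.1, 53.7 and 32.2 CPM in code 14, against 7.05, 8.66 and 6.18 CPM in code 18 (log2 2.66 ± 0.22 SE, adjusted p = 8.2e-06). ADE12, adenylosuccinate synthase, had 154, 154 and 130 CPM in code 14 and 56.5, 63.5 and 65.7 CPM in code 18 (1.24 ± 0.11 SE). For both genes the codes were far apart compared with the spread within a code. Of 11 pyrimidine genes, 2 rose: URA8 (0.33 ± 0.08 SE), a CTP synthase, and URA10 (1.13 ± 0.26), a minor orotate phosphoribosyltransferase. URA8 and URA10 each lost the call without replicate 2 of code 14 or replicate 1 of code 18, and URA8 also without replicate 1 of code 14 (adjusted p between 0.0516 and 0.0653).

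Permeases and pathways that yeast represses on good nitrogen sources were also higher in code 14. Of 24 genes under nitrogen catabolite repression, 10 rose and none fell, with a median of 0.49. GAP1, the general amino acid permease, had 914, 819 and 1075 CPM in code 14, against 106, 121 and 117 CPM in code 18 (8.18-fold; log2 3.03 ± 0.18 SE, adjusted p = 4.9e-07). MEP2, an ammonium permease, had 202, 188 and 225 CPM in code 14, against 27, 32.8 and 26.3 CPM in code 18 (2.84 ± 0.13 SE, adjusted p = 1.2e-07). For GAP1 and MEP2 replicate 3 was the highest of code 14, unlike the amino acid synthesis genes above. DAL80, a repressor of these genes, rose by 1.32 ± 0.14 (SE).

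**Figure D2:**
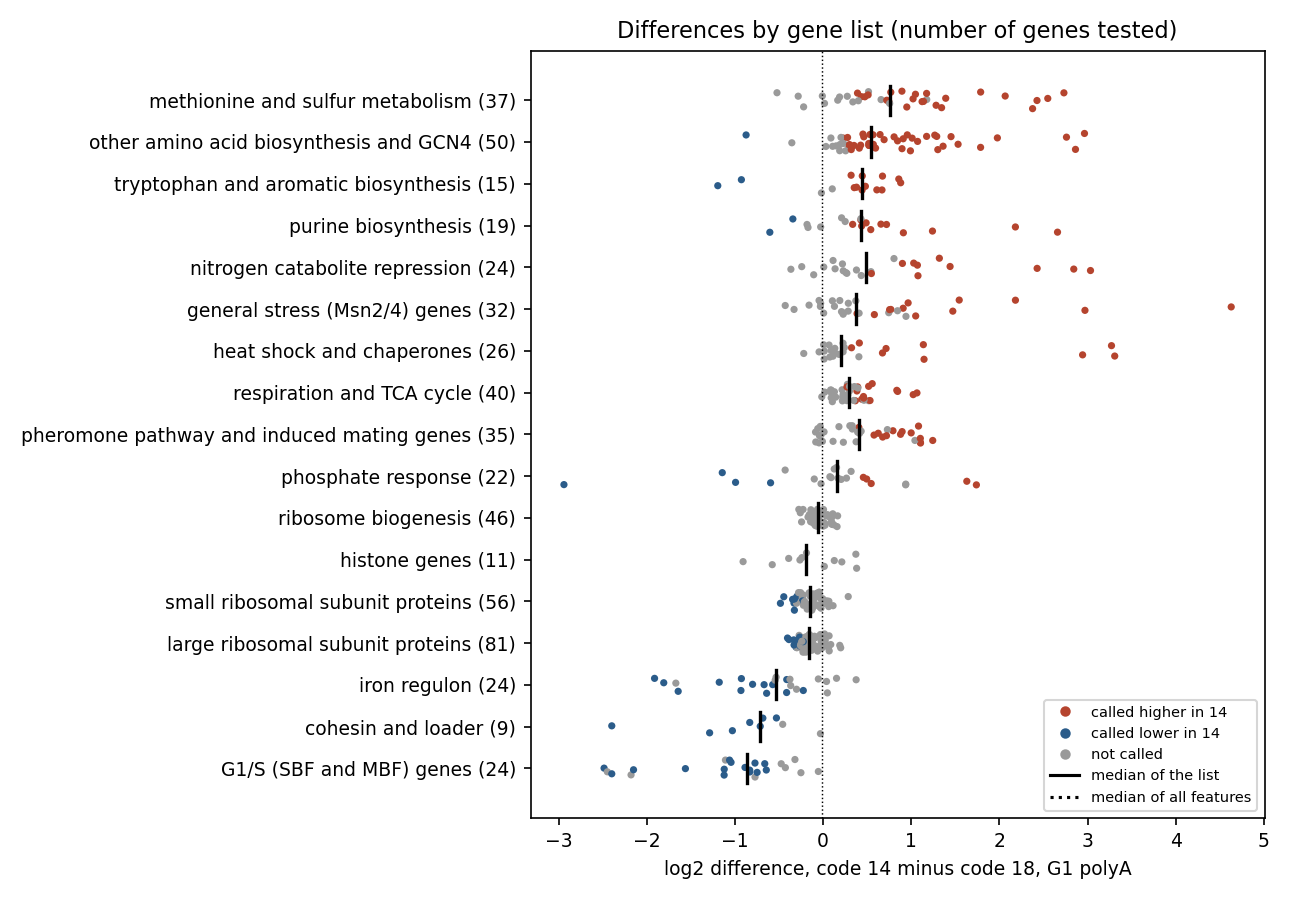
Difference on the log2 scale (code 14 minus code 18, G1 polyA) of each tested gene in 17 lists, coloured by call; bars mark list medians and the dotted line the median of all features (-0.01). Medians run from 0.75 for methionine and sulphur genes to -0.86 for G1/S genes, and ribosome biogenesis and histone genes have no call.

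Stress genes were among the largest differences. Of 32 general stress genes, 12 rose and none fell, with a median of 0.38, and of 26 heat shock and chaperone genes, 9 rose and none fell, with a median of 0.20. GRE1, a hydrophilin made under desiccation and osmotic stress, had 25.1, 36.6 and 14.8 CPM in code 14, against 0.875, 0.492 and 1.7 CPM in code 18 (24.7-fold; log2 4.63 ± 0.59 SE, adjusted p = 0.00028). GRE1 was thus at a very low level in code 18. HSP12, a membrane-stabilising stress protein, had 79.8, 88.8 and 42.7 CPM in code 14, against 5.57, 5.41 and 10.5 CPM in code 18 (3.31 ± 0.37 SE). HSP26, a small heat shock protein, had 66.9, 54.9 and 33.5 CPM in code 14, against 4.33, 3.94 and 7.88 CPM in code 18 (3.27 ± 0.34 SE). In both codes replicate 3 lay nearest the other code for GRE1, HSP12 and HSP26.

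DDR2 and HSP30 were lower in level. DDR2 had 8.92, 12.3 and 6.85 CPM in code 14, against 0.921, 0.787 and 1.93 CPM in code 18 (2.97 ± 0.37 SE). HSP30, a plasma membrane stress protein, had 16.9, 15.6 and 9.27 CPM in code 14, against 0.967, 2.75 and 2.09 CPM in code 18 (2.94 ± 0.44 SE). YGP1, a secreted glycoprotein made on nutrient limitation, rose by 1.47 ± 0.24 (SE). The counts of genes called higher were 7 for general stress and 10 for heat shock when replicate 3 of code 18 was left out. For general stress the count was also 6 without replicate 1 of code 18 and 7 and 6 without replicate 1 and 2 of code 14.

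Respiratory genes rose modestly. Of 40 genes of the tricarboxylic acid cycle and respiration, 14 rose and none fell, with a median of 0.29, and 8 rose without replicate 3 of code 18 and 9 without replicate 1 of code 18. The enzymes at the start of the cycle led them. ACO1, aconitase, had 1124, 976 and 1151 CPM in code 14, against 510, 604 and 488 CPM in code 18 (1.02 ± 0.11 SE, adjusted p = 6.6e-05). IDH1 and IDH2, the subunits of isocitrate dehydrogenase, each rose by 0.84 (± 0.12 and ± 0.10 SE).

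Of 24 genes for making thiamine and pyridoxine, 4 rose. SNO1 and SNZ1, neighbours on chromosome XIII that make pyridoxal phosphate, were among them. SNO1 had 24.9, 20.3 and 12.4 CPM in code 14, against 1.7, 1.08 and 2.16 CPM in code 18 (3.51 ± 0.27 SE, adjusted p = 5.8e-06). SNZ1 had 227, 204 and 119 CPM in code 14, against 40.3, 46.4 and 40.2 CPM in code 18 (2.12 ± 0.22 SE). The others were THI4 (2.46 ± 0.42), of the thiazole branch, and THI2 (1.06 ± 0.23), an activator of thiamine genes.

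Mating genes were higher in code 14, and replicate 3 of code 18 was the lowest library for most of those named. Of 35 pheromone pathway and mating genes, 14 rose and none fell, with a median of 0.40. FUS1 and FIG1, which act at the mating projection and in cell fusion and are markers of the arrest, did so. FUS1 had 576, 588 and 515 CPM in code 14, against 334, 399 and 237 CPM in code 18 (0.79 ± 0.15 SE, adjusted p = 0.0044). FIG1 had 919, 926 and 707 CPM in code 14, against 394, 511 and 283 CPM in code 18 (1.10 ± 0.22 SE, adjusted p = 0.0053). Neither gene overlapped between codes.

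FUS2, needed for cell fusion, had 661, 629 and 535 CPM in code 14, against 273, 338 and 161 CPM in code 18 (1.24 ± 0.21 SE). CIK1, the partner of the kinesin Kar3, rose by 1.00 ± 0.18 and PRM8, a pheromone-regulated membrane protein, by 1.10 ± 0.20. AGA1 and FAR1 had differences of 0.30 and 0.43 and were not called. Leaving out replicate 3 of code 18, 11 of the 35 genes rose and the median was 0.25. In bulk RNA, fewer cells answering the pheromone and less RNA of these genes per cell cannot be told apart.

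Of 7 a-specific genes, which only a cells express, 3 rose, the agglutinin subunit gene AGA2 (0.96 ± 0.17 SE), ASG7 (1.39 ± 0.19) and the receptor gene STE2. STE2 had 1605, 1509 and 1558 CPM in code 14, against 1182, 1359 and 990 CPM in code 18 (0.40 ± 0.10 SE). Its call was lost without replicate 3 of code 18 (0.29, adjusted p = 0.0501) or replicate 1 of code 14 (0.38, adjusted p = 0.0555). MFA1, MFA2 and STE6 were not called.

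Of 8 tested α-specific and diploid markers, 3 rose: MF(ALPHA)2, STE3 and SAG1. MF(ALPHA)2 had 1.86, 1.56 and 1.16 CPM in code 14, against 0.184, 0.197 and 0.232 CPM in code 18, and STE3 had 2.25, 1.33 and 0.632 CPM, against 0.461, 0.394 and 0.464 CPM. Both thus stayed at very low levels. SAG1, the α-agglutinin, had 206, 140 and 95.5 CPM in code 14, against 81.4, 93.2 and 70.9 CPM in code 18. The call for STE3 was lost when replicate 1 or 2 of code 14 or any 1 library of code 18 was left out, and that for SAG1 without replicate 1 or 2 of code 14 or replicate 1 or 3 of code 18 (adjusted p between 0.0509 and 0.128). Of the 8, 1 was called without replicate 1 or 3 of code 18 or replicate 1 or 2 of code 14.

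G1/S genes were lower in code 14, and the size of this difference rested in part on replicate 3 of code 18. Of 24 SBF and MBF targets, 15 fell, none rose and 9 were not called, with a median of -0.86. CLN1, a G1 cyclin, had 18.1, 15.2 and 16.9 CPM in code 14, against 80.7, 36.1 and 162 CPM in code 18 (-2.49 ± 0.49 SE, adjusted p = 0.0047). RNR1, the large subunit of ribonucleotide reductase, had 78.2, 67.6 and 94.5 CPM in code 14, against 284, 153 and 628 CPM in code 18 (-2.15 ± 0.41 SE, adjusted p = 0.0039). The code 14 libraries were close together and the code 18 libraries were spread, with replicate 3 the highest and replicate 2 the lowest.

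Without replicate 3 of code 18, CLN1 differed by -1.83 (adjusted p = 0.013) and RNR1 by -1.45 (adjusted p = 0.0065). In all, 13 of the 24 G1/S genes were then called lower, with a median of -0.585, and 9 were called lower without replicate 2 of code 14. CDC9 (-0.83 ± 0.14 SE), POL12 (-0.89 ± 0.16) and SWI4 (-1.06 ± 0.23), which encodes the DNA-binding subunit of SBF, were among the genes that fell. POL12 had 43.8, 42.3 and 51.2 CPM in code 14, against 76.9, 64.6 and 112 CPM in code 18. Among mitotic genes, CDC20 and CDC5 were not called, CLB3 and CHS2 fell in code 14, and SWI5 rose, with 18, 13.3 and 8.53 CPM in code 14, against 7.42, 3.05 and 6.41 CPM in code 18. The part of mating and G1/S level in replicate 3 of code 18 in the other differences was not tested.

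**Figure D3:**
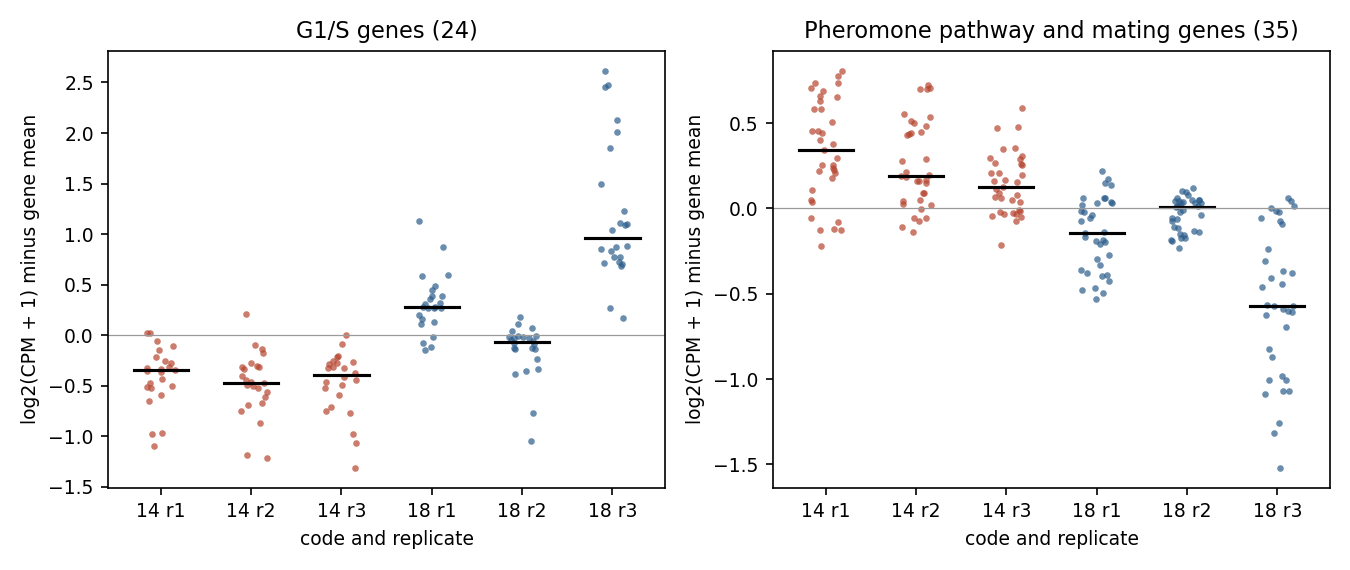
Level of each of 24 G1/S genes (left) and 35 pheromone pathway and mating genes (right) in the 6 G1 polyA libraries, as log2(CPM + 1) minus the gene's mean over the 6; points are genes and bars medians. The G1/S median is -0.35, -0.47 and -0.39 in code 14 and 0.28, -0.06 and 0.96 in code 18, and replicate 3 of code 18 also has the lowest mating median, -0.57.

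Cohesin, the ring that holds sister chromatids together, followed the G1/S genes, and both lists hold SMC3 and MCD1. Of 9 genes of cohesin and its loader, 7 fell and none rose, with a median of -0.71. MCD1, the kleisin of cohesin, had 8.63, 10.3 and 11.1 CPM in code 14, against 29.9, 15.3 and 113 CPM in code 18 (-2.40 ± 0.58 SE, adjusted p = 0.015). The call for MCD1 was lost without replicate 1 (adjusted p = 0.061) or 2 (adjusted p = 0.059) of code 14, and without replicate 3 of code 18 the difference was -1.20 (adjusted p = 0.036). PDS5, a regulator of cohesin, had 46, 46.6 and 48.7 CPM in code 14, against 100, 70.2 and 174 CPM in code 18 (-1.29 ± 0.25 SE). IRR1 (-1.03 ± 0.22) and the loader subunit SCC2 (-0.71 ± 0.15) fell with them. Of the 9 genes, 6 were called lower without replicate 3 of code 18 and 3 without replicate 2 of code 14.

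Of 13 genes for cyclins and the Cdk inhibitor Sic1, 5 fell: CLN1, CLN3, CLB3, CLB5 and CLB6. PCL2, a cyclin of the Pho85 kinase, rose by 0.95 ± 0.21 (SE). CLB6 had 0.49, 0.5 and 0 CPM in code 14, against 2.76, 1.08 and 17.2 CPM in code 18, and its fitted difference depends on replicate 3 of code 18. Without that library 1 of the 13, CLN1, was called lower. The count was 3 without replicate 1 of code 18, and 2, 1 and 2 without replicate 1, 2 and 3 of code 14. Calls of CLN3, CLB3, CLB5 and CLB6 were each lost without at least 1 other library as well, with adjusted p reaching 0.17 for CLN3, 0.16 for CLB3, 0.11 for CLB5 and 0.11 for CLB6.

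Of 12 mitotic genes of the CLB2 cluster, 4 rose, among them SWI5 (1.19 ± 0.27 SE), CLB2 (0.55 ± 0.14) and IQG1 (0.32 ± 0.09). Of the 12, 2 rose without replicate 2 or 3 of code 18 or replicate 1 or 2 of code 14. IQG1 lost its call without that library (adjusted p = 0.089), replicate 2 of code 18 (0.092) or replicate 1 (0.12) or 2 (0.085) of code 14, and CLB2 without replicate 1 (0.082) or 2 (0.063) of code 14 or replicate 1 (0.071) or 2 (0.053) of code 18. CLB2 stayed far below its M levels. CDC20, another member, was nearer to them, with 47 to 60.8 CPM in G1, against 103 to 122 CPM in M.

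Of 17 genes of the M/G1 boundary and of daughter cells, 4 rose and 1, SWI4, fell. DSE2, a wall-degrading enzyme that frees daughter cells, had 58.3, 33.8 and 24.1 CPM in code 14, against 5.57, 7.87 and 6.8 CPM in code 18 (2.54 ± 0.55 SE, adjusted p = 0.0087). DSE1 (2.21 ± 0.52), the chitinase gene CTS1 (1.93 ± 0.47) and SCW11 (1.75 ± 0.42), a glucanase, were the others. In code 14 replicate 1 was the highest and replicate 3 the lowest for all 4, and no library overlapped with code 18. Left out 1 at a time, replicate 1 of code 14 and replicate 3 of code 18 each ended the calls for DSE1, CTS1 and SCW11, and replicate 1 of code 18 those for DSE1 and CTS1 (adjusted p between 0.0504 and 0.068).

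HUG1, a DNA damage-induced inhibitor of ribonucleotide reductase, was one of the largest differences. It had 14, 12.5 and 2.21 CPM in code 14, against 0.691, 0.59 and 0.541 CPM in code 18 (3.95 ± 0.58 SE, adjusted p = 0.00085). Replicate 3 of code 14 was well below the other 2 and above the code 18 libraries. Of the 36 DNA repair and damage genes with HUG1, 2 rose and 5 fell (5.56% and 13.9%, against 8.33% and 7.53% of all features). RNR4, the small subunit of the reductase, was the other that rose (0.45 ± 0.09), and UNG1, uracil-DNA glycosylase (-0.77 ± 0.11), fell without overlap between codes. The count of genes called lower was 3 without replicate 3 of code 18, 11 without replicate 2 of code 18, and 2 without replicate 2 or 3 of code 14.

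Phosphate genes moved in both directions. Of 22, 5 rose and 4 fell. PHO5, the main secreted acid phosphatase, had 8.04, 9.68 and 6.32 CPM in code 14, against 58.2, 77.6 and 53 CPM in code 18 (-2.94 ± 0.26 SE, adjusted p = 1.8e-05). PHO84, the high-affinity phosphate transporter of the same regulon, went the other way, with 242, 260 and 160 CPM in code 14, against 59.8, 83.6 and 56 CPM in code 18 (1.74 ± 0.19 SE, adjusted p = 0.00011). Neither gene overlapped between codes.

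The near-identical acid phosphatase genes PHO11 and PHO12, whose reads RSEM divides between them, fell with PHO5 (-1.14 ± 0.32 and -0.99 ± 0.25 SE). PHO8, the vacuolar phosphatase, and VTC4, of the polyphosphate polymerase, rose (0.46 ± 0.07 and 0.49 ± 0.08). Calls of PHO11, PHO12, GIT1, PHO89 and VTC1 were lost without 1 or more single libraries, with adjusted p reaching 0.098, 0.069, 0.17, 0.089 and 0.0998. In the fits without 1 library, between 3 and 6 of the 22 rose. Between 1 and 3 fell, with 1 without replicate 1 or 3 of code 14 and 2 without replicate 2 of code 14 or replicate 2 or 3 of code 18. For the genes that rose the count was 3 without replicate 1 or 3 of code 18 or replicate 2 of code 14.

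Iron genes were lower in code 14. The iron regulon, switched on by Aft1 when iron is short, had 13 of 24 tested genes lower and none higher, with a median of -0.54. FRE4, a ferric reductase, had 30.2, 27.7 and 30.3 CPM in code 14, against 130, 120 and 80.8 CPM in code 18 (-1.91 ± 0.25 SE, adjusted p = 0.00035). FIT2, a wall mannoprotein that binds iron-laden siderophores, had 12.6, 11.1 and 7.06 CPM in code 14, against 44.5, 30.5 and 32.7 CPM in code 18 (-1.81 ± 0.36 SE). The code 14 values were below all code 18 values for both.

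FRE3 (-1.18 ± 0.15 SE), a ferric reductase, and ARN1 (-0.93 ± 0.14), a siderophore transporter, fell as well. TIS11, which lowers mRNAs of iron-using proteins, had 78.2, 40.9 and 27.6 CPM in code 14, against 209, 124 and 124 CPM in code 18 (-1.64 ± 0.47 SE, adjusted p = 0.032). The call for TIS11 was lost without replicate 2 or 3 of code 14 or replicate 1 of code 18 (adjusted p = 0.12, 0.10 and 0.12). The count of iron genes was 13 without replicate 3 of code 18 and 9 without replicate 3 of code 14. The zinc transporter genes ZRT1 (1.20 ± 0.17) and ZRT2 (0.59 ± 0.10) rose, and so did ZPS1 (1.04 ± 0.23), except without replicate 2 of code 14 (adjusted p = 0.0501), the 3 called of 10 zinc genes.

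Sugar genes differed singly. Of 18 hexose transport and phosphorylation genes tested, HXT5, SNF3, STD1 and HXT1 were called. HXT1, the low-affinity glucose transporter of rich medium, had 47.3, 43.5 and 56 CPM in code 14, against 114, 123 and 119 CPM in code 18 (-1.28 ± 0.14 SE, adjusted p = 0.00013). HXT5, a transporter of slow growth and starvation, had 17.8, 14 and 6.32 CPM in code 14, against 2.4, 2.75 and 1.47 CPM in code 18 (2.53 ± 0.43 SE, adjusted p = 0.002). The glucose sensor SNF3 (-0.32 ± 0.10) and STD1 (-0.28 ± 0.08), a regulator of its pathway, each lost the call without any of 5 single libraries (adjusted p between 0.0545 and 0.18).

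Of 24 glycolysis and fermentation genes, 4 were called: ADH5 (0.93 ± 0.17 SE), a minor alcohol dehydrogenase, ENO1 (0.81 ± 0.23), ADH3 (0.33 ± 0.09) and TDH2 (-0.28 ± 0.07). ENO1 and TDH2 share reads with close paralogs. Without replicate 3 of code 18, ADH5 alone kept its call. ENO1, ADH3 and TDH2 each lost theirs without 1 of 4 or more single libraries, with adjusted p reaching 0.13, 0.11 and 0.081. Of 26 ergosterol genes, ERG24 rose (0.58 ± 0.13) and ERG6 (-0.37 ± 0.06), ERG11 (-0.32 ± 0.07) and UPC2 (-0.63 ± 0.16) fell. UPC2 was not called without replicate 2 or 3 of code 14 or replicate 1 of code 18 (adjusted p = 0.09, 0.07 and 0.082).

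Of 29 cell wall genes tested, 2 rose (5 without replicate 3 of code 14) and 3 fell. EXG1, a glucanase, had 780, 662 and 452 CPM in code 14, against 293, 288 and 247 CPM in code 18 (1.20 ± 0.20 SE, adjusted p = 0.0021). The mannoprotein gene TIR3 rose too (0.82 ± 0.18). TIP1 (-0.98 ± 0.23), HSP150 (-0.41 ± 0.12) and CHS2 (-0.42 ± 0.12) fell, but TIP1 was not called without replicate 1 or 2 of code 14 (adjusted p = 0.053 and 0.057), CHS2 without replicate 2 or 3 of code 14 or 1 of code 18 (0.12 for each) and HSP150 without any single library (up to 0.13).

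Ribosomal protein genes were slightly lower as a group in code 14, by counts that rested on single libraries. Of 81 large-subunit genes 10 fell (median -0.16), and of 56 small-subunit genes 9 fell (median -0.15), with none higher. Without replicate 3 of code 18, 1 gene of each list was called. The counts were 4 and 5 without replicate 2 of code 18, 2 and 1 without replicate 1 of code 14, and 4 and 4 without replicate 3 of code 14, large subunit first. RPL7B had 392, 440 and 395 CPM in code 14, against 496, 546 and 583 CPM in code 18 (-0.40 ± 0.08 SE, adjusted p = 0.0059). RPS20 had 1138, 1417 and 1441 CPM in code 14, against 1857, 1696 and 2039 CPM in code 18 (-0.48 ± 0.11 SE, adjusted p = 0.0093).

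RPL12A (-0.33 ± 0.08), RPL24B (-0.39 ± 0.09), RPS10B (-0.45 ± 0.11) and RPS15 (-0.33 ± 0.08) were not called without replicate 3 of code 18 (adjusted p = 0.066, 0.053, 0.062 and 0.064). RPL12A, RPS10B and RPS15 were also not called without replicate 1 of code 14 (0.057, 0.052 and 0.082), and RPS15 without its replicate 3 (0.053). Most of these genes have a near-identical copy. None of 46 ribosome biogenesis genes was called, and none of 11 histone genes, for which the median was -0.19 (0.03 without replicate 3 of code 18).

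Silencing and ribosomal DNA genes gave few calls. SIR2, the deacetylase that silences the mating loci, telomeres and ribosomal DNA, had 38.9, 33.9 and 40.9 CPM in code 14, against 71.7, 72.1 and 65.7 CPM in code 18 (-0.89 ± 0.11 SE, adjusted p = 0.00028). In total RNA SIR2 differed by -0.31 with overlapping ranges, and in M by -0.32, and neither of these differences was called. RIF1 (-0.52 ± 0.13), a telomere length regulator, and ESC1 (-0.39 ± 0.12), which tethers silent chromatin to the envelope, were the others called of 13. Both lost the call without replicate 2 of code 14, or 1 or 3 of code 18, and ESC1 also without replicate 3 of code 14 (adjusted p between 0.059 and 0.158). TOP2 (-0.52 ± 0.12), topoisomerase II, and HMO1 (-0.35 ± 0.08), an HMG-box protein of ribosomal gene chromatin, were called of 14 ribosomal DNA and topoisomerase genes. TOP2 was not called without replicate 2 of code 14 (0.063) or 3 of code 18 (0.053), nor HMO1 without replicate 3 of code 14 (0.066) or 1 of code 18 (0.07).

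Retrotransposon genes were lower in code 14, with the limit that RSEM divides reads among near-identical copies, so that single copies are uncertain. Of 66 tested, 20 fell and 3 rose (5 without replicate 1 of code 18), with a median of -0.33, and as a share of all counts they took between 4.64% and 4.87% in code 14 and between 5.35% and 6.13% in code 18. YBL100W-B had 346, 284 and 348 CPM in code 14, against 764, 659 and 677 CPM in code 18 (-1.10 ± 0.11 SE, adjusted p = 6.4e-05). YOR343W-B (-0.93 ± 0.09) and YGR161C-D (-0.94 ± 0.11) fell by similar amounts.

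Of 298 tested genes within 30 kb of a chromosome end, 40 rose (13.4%) and 30 fell (10.1%), against 8.33% and 7.53% of all features. Without replicate 3 of code 18, 24 of 305 rose and 19 fell, against 333 and 245 of all 5861 features in that fit. The count of those that rose was 21 without replicate 1 of code 18 and 23 and 24 without replicate 1 and 2 of code 14. For those that fell it was 14, 13 and 14 without replicate 1, 2 and 3 of code 14. CTP1, the mitochondrial citrate carrier, had 33.7, 37.8 and 37.2 CPM in code 14, against 12.2, 13 and 11.8 CPM in code 18 (1.56 ± 0.10 SE, adjusted p = 1e-06). YLL066C (-1.55 ± 0.15) and YHL049C (-2.43 ± 0.38), which have near-identical copies at other ends and are uncertain, fell. None of 11 COS genes and none of 8 seripauperin genes tested was called.

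The positions of the genes showed a difference along chromosome XII, which carries the ribosomal DNA. The split at the array (chrXII:451575-489469) was chosen after the values were seen. On its telomere side 265 protein-coding genes were tested. Of these 44 rose (16.6%) and 2 fell (0.755%), the median was 0.12 (1.08-fold) and 199 (75.1%) had a positive difference. The count of 44 was 28 without replicate 3 of code 18 or replicate 1 of code 14 and 29 without replicate 2 of code 14, and no more than 1 fell in these fits. On the centromere side 13 of 202 rose (6.44%) and 12 fell (5.94%), with a median of -0.03. Over all 5558 protein-coding genes, 475 rose (8.55%) and 416 fell (7.48%), with a median of -0.01.

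The shift on the telomere side was small for each gene and was not shared by all libraries of code 14. The median deviation of these genes from their mean over the 6 G1 libraries was 0.0965, 0.0928 and 0.0111 in code 14, against -0.0613, -0.0768 and -0.0601 in code 18 (log2). Replicate 3 of code 14 lay between the other libraries of its code and those of code 18. The M libraries of these cultures gave 0.1075, 0.0875 and 0.0072 in code 14, against -0.0689, -0.0626 and -0.0759 in code 18, with replicate 3 of code 14 again in between.

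Without replicate 3 of code 14 the median on the telomere side was 0.15, and over all alternatives to the processing it was between 0.10 and 0.15. Of 120 windows of 100 kb with at least 20 tested genes, 8 had a median above 0.1, and 6 of these 8 were on chromosome XII at or beyond the array. Among them, the XII window with midpoint 450 kb (median 0.1551) holds the array. It also takes in genes on the centromere side, so it does not place the start of the shift at the array. The highest of all was on chromosome XIV (midpoint 750 kb, median 0.2627), against 0.2045 for the highest on XII. A window on XVI (950 kb) had 0.1358, and the XII window at 850 kb, beyond the array, had 0.0312. Whole chromosomes other than XII had medians between -0.0423 and 0.0584. DNA copy number was not measured in these libraries.

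**Figure D4:**
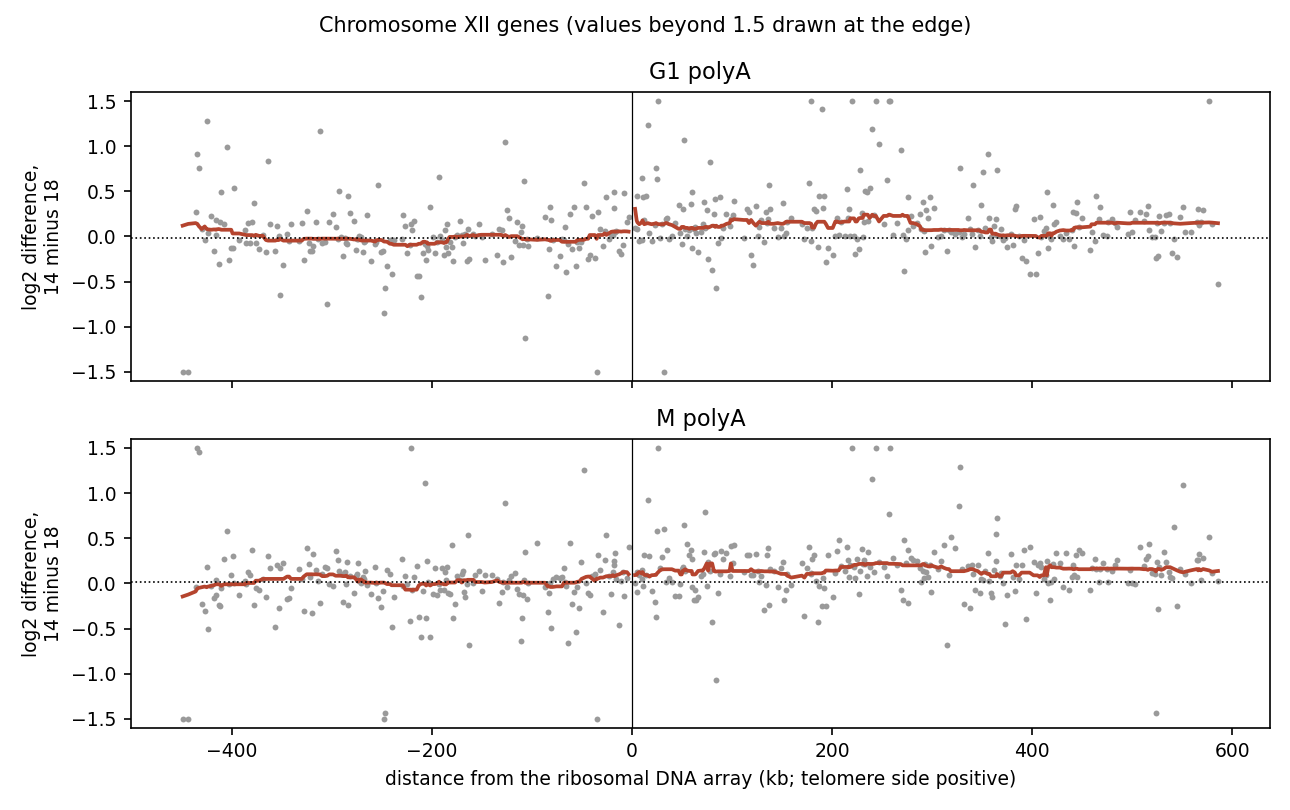
Difference on the log2 scale (code 14 minus code 18) of protein-coding genes along chromosome XII in G1 (top) and M (bottom) polyA libraries, by distance from the ribosomal DNA array in kb, telomere side positive; points beyond 1.5 sit at the edge, the line is a running median of 31 genes and the dotted line the median of all protein-coding genes. In G1 the line runs mostly above the dotted line on the telomere side (median 0.12), and the centromere side has a median of -0.03.

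The promoters of the called genes were searched for 7 motifs on both strands. The window ran from 250 bases before to 50 after each gene's start in RefSeq, which was the start codon for 5551 of 5555 genes. TGACTC was found before 21.9% of 474 genes called higher, 3.85% of 416 called lower and 8.26% of all, and before 56% of the amino acid synthesis genes. The site in HIS4 shown above lies 199 bases before the start, and ARG1, LYS9 and ARO3 had no match. ACGCGT was found before 1.27% of genes called higher and 13.5% of those called lower, against 3.2% of all, and before 54.2% of the G1/S and 55.6% of the cohesin genes. MCD1, RNR1 and CLN1 had no match in this window.

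The other motifs were closer to the whole set in the called genes. TGAAACA was before 8.23% of genes called higher and 5.29% of those called lower (7.31% of all, 45.7% of mating genes). GCACCC was before 2.74% and 5.05% (4.3% of all, 50% of iron genes), and CCCCT before 24.1% and 28.4% (21.8% of all, 65.6% of general stress genes). CACGTG, the Cbf1 and Pho4 site, was before 3.38% and 1.92% (2.99% of all, 27% of methionine genes and 22.7% of phosphate genes). CCAATCA, the HAP complex core, was before 4.43% and 2.64% (3.2% of all, 20% of respiratory genes). Several named genes lacked the motif of their list in the window searched, and bases further upstream were not searched. HSP26, GRE1 and YGP1 had no CCCCT, FRE3, FRE4 and ARN1 no GCACCC, and PRM8 and ASG7 no TGAAACA. MET17, SSU1, PHO5, PHO84 and PHO8 had no CACGTG, and ACO1, IDH1 and IDH2 no CCAATCA. A match is a run of letters and not a measured binding site.

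The M libraries show which differences were particular to G1. In M, 323 features were higher (5.54%) and 374 lower (6.41%) in code 14. The difference itself changed between the arrests for 217 features (3.72%), 140 with a greater value in G1 and 77 with a smaller one. G1 and M samples came from the same cultures, so they are not independent, and the M samples were taken later, after DNA replication. The test of this change had no term for the culture, so its p-values and counts leave the pairing out.

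Of the 50 amino acid genes, 22 had such a change, as did 9 of the 15 aromatic and 8 of the 24 G1/S genes. For HIS4, with 426, 395 and 512 CPM in code 14 and 321, 265 and 408 CPM in code 18 in M, the difference was 0.42 in M against 2.86 in G1 (interaction adjusted p = 0.00065). For ARG1 it was 0.73 in M against 2.96 in G1 (interaction adjusted p = 0.00013). RNR1 had 304, 284 and 169 CPM in code 14 and 163, 190 and 138 CPM in code 18 in M, a difference of 0.63 that was not called, against -2.15 in G1 (interaction adjusted p = 0.02). For YCG1, ADE2, GAP1 and the iron genes FRE4 and FIT2 no interaction was called.

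The acid phosphatase genes turned round between the arrests. PHO5 had 185, 344 and 219 CPM in code 14 in M, against 23.5, 32.4 and 24.2 CPM in code 18, a difference of 3.23, whereas it was -2.94 in G1 (interaction -6.17, adjusted p = 3.8e-06). PHO11 (3.56 in M) and PHO12 (3.01 in M) turned likewise. ADH5 (0.93 in G1, -0.77 in M) and YGP1 (1.47 in G1, -2.10 in M) turned the other way. Of all features, 16 were called in both arrests with opposite signs and an interaction, 12 of them higher in G1 and 4 lower.

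**Figure D5:**
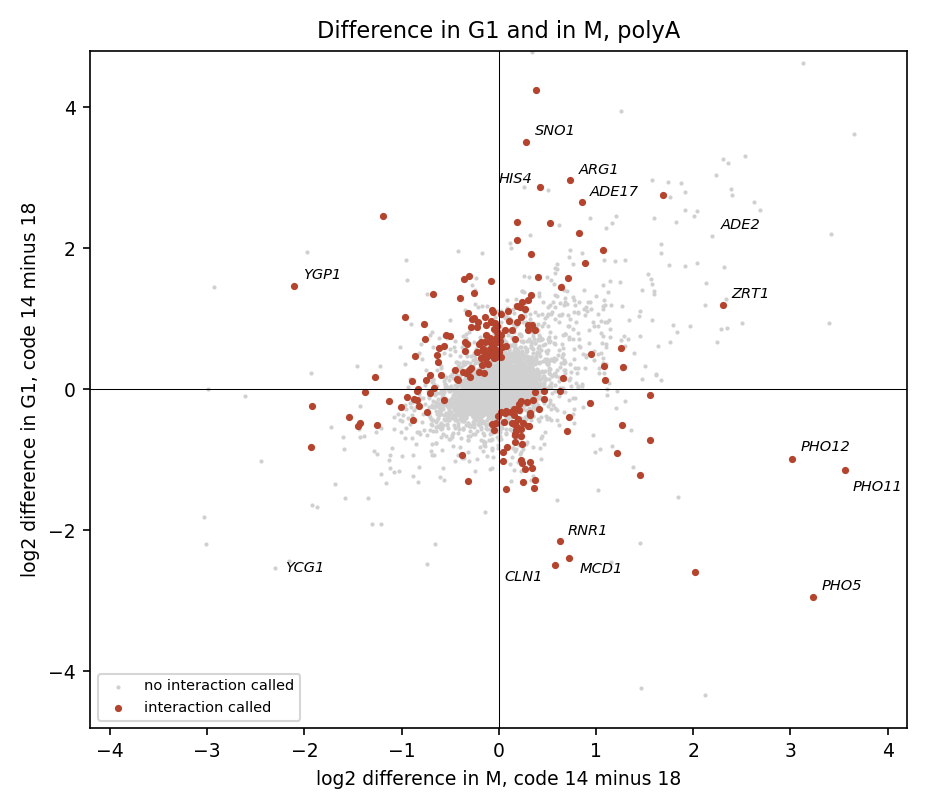
Difference on the log2 scale (code 14 minus code 18) of each feature in G1 (vertical) and M (horizontal) polyA libraries; red points had an interaction at an adjusted p below 0.05, and 4 features lie outside the axes. PHO5 (-2.94 in G1, 3.23 in M), PHO11 and PHO12 lie at the lower right, HIS4 and ARG1 near the vertical axis, and YCG1 (-2.53 and -2.30) near the diagonal.

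In the total RNA libraries of the G1 samples, which are another portion of each RNA sample, 202 of 4960 features were higher (4.07%) and 225 lower (4.54%) in code 14. Of the 486 features higher in polyA libraries, 386 were tested there, 367 had the same sign and 178 were called higher. Of the 439 lower, 420 were tested, 378 had the same sign and 96 were called lower. ARG1 differed by 2.51, GAP1 by 2.74, HSP12 by 3.45 and PHO5 by -2.60 in total RNA, against 2.96, 3.03, 3.31 and -2.94 in polyA libraries. For CLN1 and RNR1 the values were -2.73 and -2.21, against -2.49 and -2.15. MCD1 (-1.32), ADH5 (0.37) and RIF1 (-0.26) were not called in total RNA, nor were BRN1 and SIR2. The list medians in total and polyA libraries were 0.58 and 0.55 for amino acid genes, -0.85 and -0.86 for G1/S genes and -0.73 and -0.54 for iron genes. Ribosomal protein genes had medians of -0.36 in total RNA for both subunits, against -0.16 and -0.15 in polyA libraries.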

How the data were processed

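Members and gene lists were chosen with earlier results of these data known. The authors deposited a table of expected counts per gene (RSEM 1.3.0 on STAR 2.5.2a alignments to Ensembl R64-1-1 after trimming with cutadapt 1.9.1, per the submitters' notes; strand-specific single-end reads). Its 24 TPM columns were not used. Column names match a group but not a strain, so libraries were grouped by the code in the name.

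Expected counts were rounded and 92 ERCC and 16 ribosomal RNA features left out. The main test was the quasi-likelihood test of edgeR 4.0.16 (R 4.3.3; TMM, filterByExpr) over the 12 polyA libraries with a term for each code and arrest, and Benjamini-Hochberg adjustment over the 5832 features tested (threshold 0.05), with DESeq2 1.42.0 as an alternative. The design follows the study's, which used DESeq2 1.12.3. SE is the fitted log2 difference divided by the square root of F. The polyA and total libraries of a culture were compared with the culture as a block. Scripts were tested on simulated data.

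Named genes were the 10 largest differences in each direction among called features without overlap and with a mean of at least 5 CPM (no retrotransposon genes), condensin and construction loci, the 3 called genes with the smallest adjusted p in each list with 3 or more called, all called genes of a list with 5 or fewer, and the arrest and cell type markers. A gene that the rule names is not reported here. RPP1, an RNase P subunit, was left out of the ribosomal list. Replicates of 1 code differed by far more than sampling noise (chi-square per degree of freedom between 18.5 and 33.3), and the labels call them biological. The alternatives were other size factors, filters, fits and libraries left out. Leaving out each library in turn for each list was added after seeing the data. Intervals and p-values cover only the spread between these libraries.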

Additional observations from a re-analysis of the deposited data

Results flagged for a closer look

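Among 139 genes followed across the arrests, the difference between code 14 and code 18 itself changed between G1 and M for 34. Of these, 17 had a greater value in G1 and 17 a smaller one (edgeR interaction, adjusted p below 0.05). Of all 5832 features, 217 (3.72%) did so, 140 with a greater value in G1 and 77 with a smaller one. The 139 genes were chosen largely by their G1 calls, and the G1 difference is part of the interaction. The 34 of 139 is therefore raised by that choice. All values are the difference (14 minus 18) in G1 minus that in M, on the log2 scale.

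Of the amino acid, aromatic and purine synthesis genes, HIS4 (2.44), ARG1 (2.23), LYS1 (0.90), ARO3 (1.10), ARO8 (0.67), TRP3 (0.76), ADE17 (1.81) and ADE12 (1.00) had a greater value in G1. So did the pyridoxine genes SNO1 (3.23) and SNZ1 (1.93), the tricarboxylic acid cycle genes ACO1 (0.79), IDH1 (0.78) and IDH2 (0.70), and YGP1 (3.57), ADH5 (1.70), PRM8 (1.16) and SSU1 (1.02).

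A smaller value in G1 was found for the acid phosphatase genes PHO5 (-6.17), PHO11 (-4.70) and PHO12 (-4.01), and for the G1/S and chromosome genes CLN1 (-3.06), MCD1 (-3.12), RNR1 (-2.78), PDS5 (-1.66), IRR1 (-1.35), POL12 (-0.93) and TOP2 (-0.83). The zinc transporter genes ZRT1 (-1.10) and ZRT2 (-0.67) were higher in code 14 in both arrests and more so in M. ERG11 (-0.40), ERG6 (-0.36), STD1 (-0.47), VTC4 (-0.45) and the retrotransposon gene YOR343W-B (-0.55) completed the list. In all, 5 of the 34 genes, PHO5, PHO11, PHO12, ADH5 and YGP1, were called in both arrests with opposite signs.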

How the results depend on the processing

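Against 486 higher, 439 lower and 423 at 1.5-fold or more, leaving out 1 library gave 331 to 526, 238 to 482 and 308 to 475 calls, and the YCG1 difference was between -2.65 and -2.42. Interaction calls were 93 to 381 with 1 library left out (main 217) and 503 with DESeq2. Calls that differed between polyA and total libraries were 1 to 6 with 1 library left out (main 2) and 4 without a filter, and calls in total RNA were 281 to 473 (main 427). In a fit of the 6 G1 polyA libraries alone, 247 features were lower, and 63.5% of the calls were higher ones, against 52.5% in the main fit and 64.3% without replicate 3 of code 14. The cause was not tested. Of the 925 calls, 628 were kept in that fit, 896 with RLE and 859 with upper quartile size factors, 918 with DESeq2 and 558 to 801 with 1 library left out. With 1 library left out, ADH1 was between -0.0723 and 0.132 and TRP1 between -0.0105 and 0.2003, neither of them called. ADH1 changed sign without replicate 1 (-0.07) or 3 (-0.02) of code 18 or 1 (-0.01) of code 14, and TRP1 without the last (-0.01). Whether the replicate numbers pair the codes was not settled. Same-numbered libraries correlated at 0.238, 0.014 and 0.126 in their deviations from the code means. Replicates 1 and 3 of code 14 correlated best with the library of their own number in code 18. Replicate 2 of code 14 correlated best with replicate 3 of code 18 (0.237). With a replicate block 535 features were higher, 487 lower and 434 differed at least 1.5-fold, YCG1 differed by -2.53, and 248 interactions and 453 features in total RNA were called. The block took away 5 and added 2 calls among the 139 followed genes. Total libraries, with 642144 to 929935 counts outside ribosomal RNA, limit what they can show for low genes.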
